A study of Mus musculus with 26 samples.

Results

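Levels of 9 genes of cholesterol efflux and of the liver X receptor (LXR) response, Nr1h3, Abca1, Abcg1, Scarb1, Apoe, Pltp, Mylip, Msr1 and Soat1, were followed in the fat of lean, obese and formerly obese mice. They were taken by symbol, and all 9 were found once each among the 39017 genes of both count tables. Male wild type C57BL/6J mice were put on their diets at 9 to 10 weeks of age. LFD mice ate 10% fat throughout the 12 weeks, HFD mice ate 60% fat throughout, and SW mice ate the HFD for 9 weeks before 3 weeks on the LFD. Epididymal fat was digested with collagenase and spun into floating adipocytes and pelleted stromal vascular cells (SVCs), and the messenger RNA of each fraction was sequenced. The files gave 3 libraries for each diet in adipocytes, and 1 LFD, 2 HFD and 3 SW libraries in SVCs, so no test was made with SVCs of LFD mice.

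LXRα, encoded by Nr1h3, is a nuclear receptor that pairs with a retinoid X receptor and switches on genes of cholesterol disposal when oxysterols accumulate. Abca1 and Abcg1 pump cholesterol out of the cell to apolipoprotein and to HDL particles, and Apoe and Pltp serve these particles outside it. In fat, adipocytes store much free cholesterol beside their triglyceride, and macrophages take up lipid through scavenger receptors such as Msr1 and hold it as cholesterol ester made by Soat1.

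The LXR pair binds a direct repeat of AGGTCA with 4 bases between its copies, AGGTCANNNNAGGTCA. RefSeq promoter windows, from 250 bases before to 50 bases after a transcript's start, were at hand for 6 of the 9 genes in 9 windows (Nr1h3, Abca1, Apoe, Pltp, Mylip and Soat1), and not for Abcg1, Msr1 and Scarb1. With at most 2 mismatches in the 12 fixed bases, on either strand, none of the 9 windows held the repeat, against 3.02% of all 32851 windows. With at most 3 mismatches, a limit set after the windows were seen, 1 window held it, that of Abca1, against 21.9% of all windows. It is shown because Abca1 is the textbook target of this element. The stretch covers the 100 bases before the start of Abca1 on the minus strand, chr4:53159896-53159995 of GRCm38.p6, and capitals mark the repeat, which lies 67 to 52 bases before the start and reads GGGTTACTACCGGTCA on the other strand.
Abca1: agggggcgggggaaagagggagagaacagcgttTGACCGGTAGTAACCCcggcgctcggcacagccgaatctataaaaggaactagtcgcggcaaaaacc
A match of letters is a description and not a bound site, and a single exact AGGTCA on either strand was in none of the 9 windows, against 16.3% of all windows.

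The libraries held 5781902 to 23725647 counts, and the smallest were among those of LFD mice. The lowest count of any of the 9 genes was 17, that of Msr1 in SVCs of the LFD library. The 10 adipocyte markers summed to between 11233 and 47772 CPM (counts per 1000000 counts of a library, scaled with TMM factors) in adipocytes and to between 830 and 1437 CPM in SVCs, and no marker of this list was at 0 in a group. The adipocyte fraction also carried RNA of other cells: the 11 macrophage markers, none at 0, summed to 632 to 1044 CPM in LFD, 7861 to 9127 CPM in HFD and 5534 to 8076 CPM in SW libraries. In the SVCs they summed to 9475 CPM in LFD, 10985 and 21957 CPM in HFD and 15691 to 22732 CPM in SW. SVC HFD library 411 stood apart, with 33.5% of its counts from mitochondrial genes against 4.36% to 9.54% in the other SVC libraries. Values that rest on the SVCs of HFD mice are therefore given with and without it. The other SVC HFD library, 212, stood apart in hemoglobin genes, with 0.287% of its counts against 2.76% to 5.15% in the other SVC libraries. In adipocytes, 9 genes were counted in all HFD libraries (mean of 10 or more there) and in no LFD or SW library, 8 showed the reverse, and none of the cholesterol genes was among them.

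**Figure D1:**
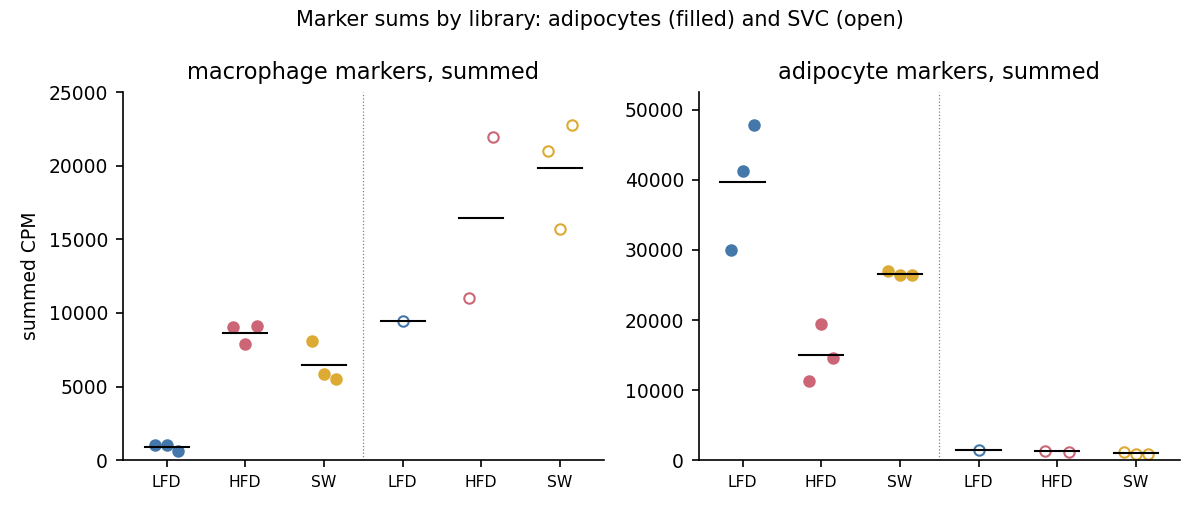
Summed CPM of 11 macrophage markers (left) and 10 adipocyte markers (right), 1 point per library and a line at the group mean, for adipocytes (filled) and SVCs (open) by diet. The macrophage sum of the adipocyte fraction lies at 632 to 1044 CPM in LFD and at 5534 CPM or more in HFD and SW libraries.

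In adipocytes, HFD feeding raised 5 of the 9 genes, Msr1, Soat1, Pltp, Abcg1 and Abca1, and lowered 2, Mylip and Nr1h3. Over all 14461 genes tested in this comparison 26.5% were called higher and 25.0% lower, and the median log2 fold change was 0.51 for the 9 genes and -0.03 for all genes. After the switch back to the LFD, 4 of the 5 stayed above the LFD level, Msr1, Soat1, Pltp and Abcg1. Here 10.9% of all genes were called higher than in LFD and 6.18% lower, and none of the 9 was called lower. Each adjusted p comes from the quasi-likelihood test of edgeR unless another tool is named, and n is 3 libraries per group in adipocytes.

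The scavenger receptor Msr1 (chr8:39581685-39642673, minus strand, GRCm38), which takes up modified lipoprotein into macrophages, changed most. It stood at 7.11, 5.25 and 2.61 CPM in the LFD libraries, at 99.4, 71.9 and 89.1 CPM in HFD and at 68.9, 52.7 and 46.6 CPM in SW. No LFD library came near the other groups, and all SW libraries lay below all HFD libraries. The rise from LFD to HFD was 4.10 ± 0.30 on the log2 scale (fold change ± SE, n = 3 per group, adjusted p = 9.41e-06 by edgeR), and 3.48 ± 0.30 from LFD to SW (edgeR adjusted p = 6.10e-05).

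Soat1 (chr1:156424525-156474331, minus strand), the enzyme that esterifies cholesterol for storage, followed the same order of groups. Its levels were 17.0, 9.95 and 6.42 CPM in LFD, 105, 78.6 and 105 CPM in HFD and 84.5, 71.5 and 64.6 CPM in SW. The HFD and SW libraries overlapped with each other and not with LFD. Soat1 rose 8.67-fold from LFD to HFD (log2 3.12 ± 0.30, edgeR adjusted p = 3.22e-05) and was 6.67-fold above LFD in SW (log2 2.74 ± 0.29, edgeR adjusted p = 0.000187).

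Pltp (chr2:164839518-164857711, minus strand), which moves phospholipid between lipoprotein particles, stood at 202, 217 and 154 CPM in LFD, 950, 1025 and 1123 CPM in HFD and 847, 739 and 779 CPM in SW. The 3 groups did not overlap. The log2 fold change was 2.41 ± 0.18 in HFD against LFD (edgeR adjusted p = 9.74e-06) and 2.04 ± 0.18 in SW against LFD (edgeR adjusted p = 6.75e-05). Pltp shares 495 of its 2562 exon bases with Ctsa, a lysosomal gene on the opposite strand that was itself higher in HFD (log2 1.84 ± 0.18, edgeR adjusted p = 4.35e-05), so without knowledge of strand the reads of the shared bases cannot be told apart.

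Of the efflux pumps, Abcg1 (chr17:31057675-31117988, plus strand) was higher than in LFD in both other groups, and Abca1 (chr4:53030787-53159895, minus strand) was called higher in HFD alone. Abcg1 stood at 34.2, 32.2 and 31.6 CPM in LFD, at 94.0, 76.2 and 92.0 CPM in HFD and at 96.0, 81.7 and 65.5 CPM in SW. The HFD and SW libraries were mixed with each other and all lay above LFD. Abcg1 was 2.64-fold higher in HFD than in LFD (log2 1.40 ± 0.16, edgeR adjusted p = 7.68e-05) and 2.47-fold higher in SW (log2 1.31 ± 0.16, edgeR adjusted p = 0.000350).

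Abca1 stood at 138, 117 and 117 CPM in LFD, 201, 157 and 179 CPM in HFD and 126, 165 and 160 CPM in SW. HFD libraries all lay above LFD libraries, and SW overlapped with both. Its log2 fold change was 0.51 ± 0.15 in HFD against LFD (edgeR adjusted p = 0.0182), and 0.27 in SW against LFD with a 95% interval of -0.07 to 0.61 (edgeR adjusted p = 0.255). The first of these missed the threshold without LFD library 405 (adjusted p = 0.0689 by edgeR), LFD library 406 (0.0636) or HFD library 401 (0.0638).

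Scarb1 (chr5:125277087-125341094, minus strand), the HDL receptor SR-BI, did not pass the test in any adipocyte comparison. Its LFD libraries held 191, 189 and 138 CPM, its HFD libraries 196, 160 and 138 CPM and its SW libraries 103, 136 and 136 CPM. HFD and LFD covered the same range, while all SW libraries lay below both other groups. The log2 fold change was -0.09 in HFD against LFD (95% interval -0.51 to 0.33, edgeR adjusted p = 0.714) and -0.48 in SW against LFD (-0.89 to -0.06, edgeR adjusted p = 0.112).

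Nr1h3 (chr2:91184061-91202834, minus strand), the receptor gene itself, went the other way from the pumps in HFD. Its levels were 108, 118 and 129 CPM in LFD, 74.6, 103 and 84.0 CPM in HFD and 120, 102 and 114 CPM in SW. HFD lay below LFD in every library, and SW overlapped with both. It fell by 0.46 ± 0.14 on the log2 scale in HFD (edgeR adjusted p = 0.0174), and this missed the threshold in edgeR without LFD library 405 (adjusted p = 0.0507), LFD library 406 (0.0635), HFD library 401 (0.0655) or HFD library 403 (0.0674).

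Mylip (chr13:45389742-45412022, plus strand), an LXR target that marks the LDL receptor for breakdown, also fell in HFD. It stood at 80.9, 78.3 and 72.1 CPM in LFD, 51.7, 36.7 and 33.4 CPM in HFD and 38.5, 70.7 and 58.3 CPM in SW. All HFD and SW libraries lay below LFD, and the SW libraries spread widely. The log2 fold change was -0.95 ± 0.22 in HFD against LFD (edgeR adjusted p = 0.00584) and -0.47 in SW against LFD (95% interval -0.96 to 0.03, edgeR adjusted p = 0.181).

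Apoe (chr7:19696109-19699188, minus strand), the apolipoprotein that macrophages and adipocytes secrete, was the most abundant of the 9 genes per length in every group. It held 2442, 3699 and 3814 CPM in LFD, 2608, 2565 and 2408 CPM in HFD and 4213, 3332 and 3453 CPM in SW. HFD overlapped with 1 LFD library, and every SW library lay above HFD. The log2 fold change was -0.41 in HFD against LFD (95% interval -0.87 to 0.06, edgeR adjusted p = 0.126), and it was called lower without LFD library 404 (-0.58, edgeR adjusted p = 0.0376).

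**Figure D2:**
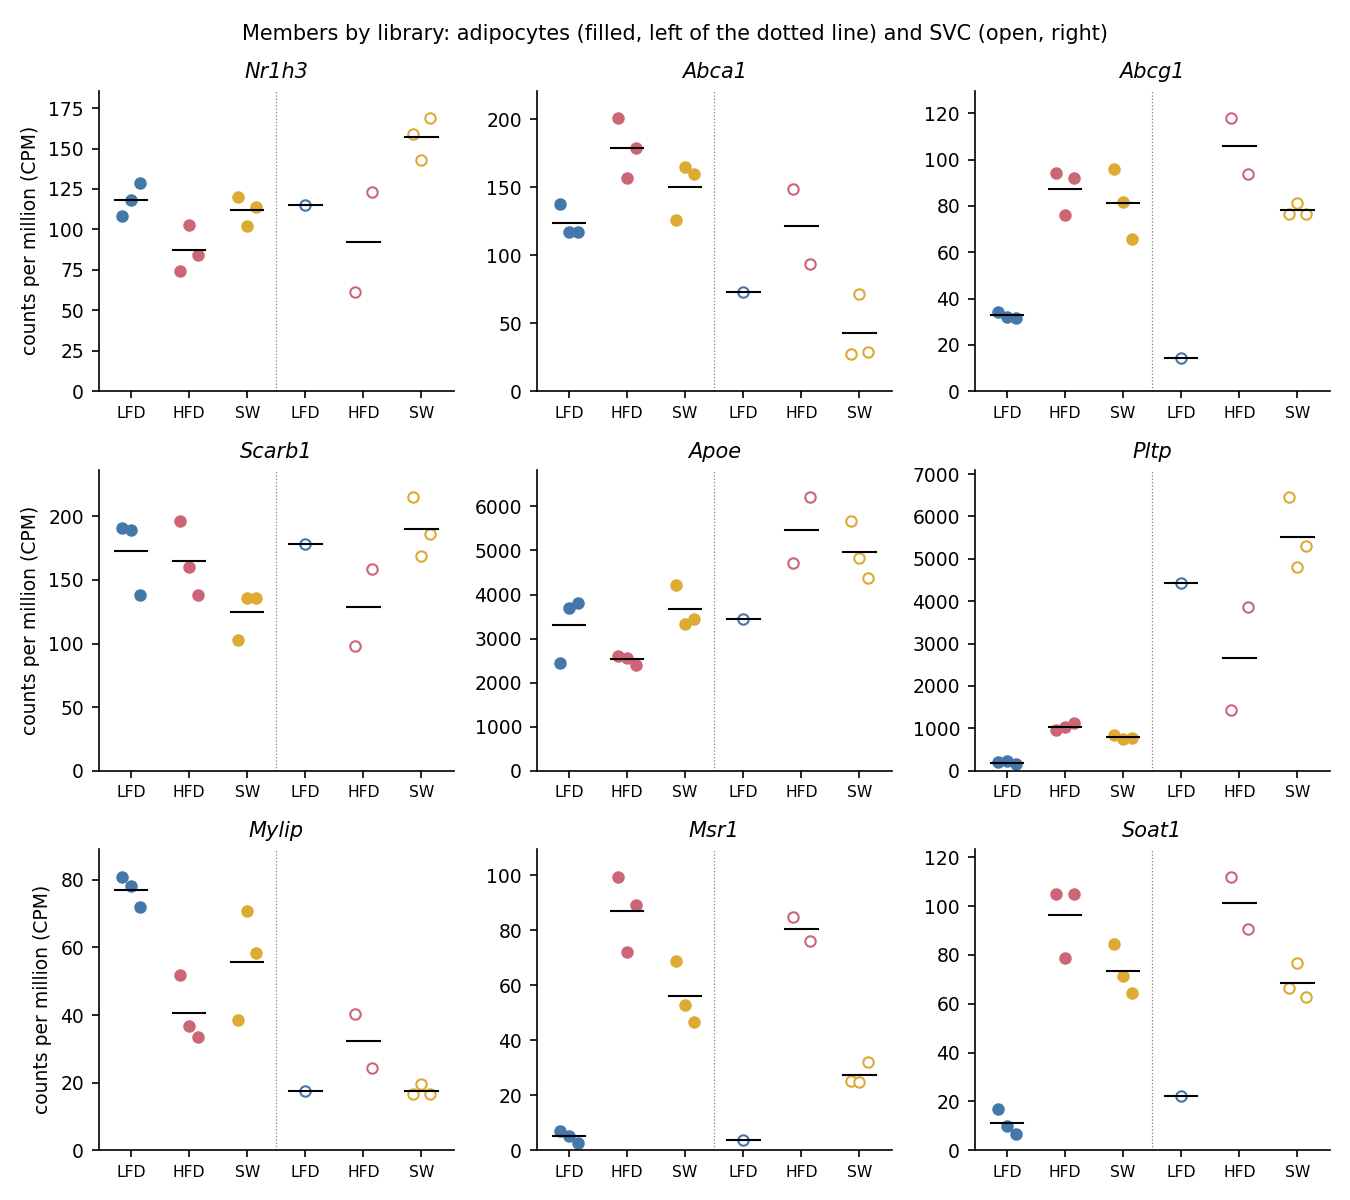
CPM of each of the 9 genes, 1 point per library with a line at the group mean, in adipocytes (filled) and SVCs (open) by diet; each axis starts at 0. In adipocytes, Msr1, Soat1, Pltp and Abcg1 are above all LFD libraries in HFD and SW alike, and Mylip is below them.

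Beside these values, all 11 macrophage markers were higher in HFD than in LFD adipocytes, with log2 fold changes from 1.85 (C1qa) to 4.49 (Adgre1), and all 11 were higher in SW than in LFD. Of the adipocyte markers, 7 of 10 were lower in HFD than in LFD. Of all genes, 26.5% were called higher and 25.0% lower in HFD. Of the markers of other cell types, 3 of 6 for fibroblasts and progenitors were higher in HFD, 3 of 5 for endothelial cells and 3 of 5 for mesothelial cells and 4 of 4 for red blood cells were lower, and none of 4 tested T cell and 4 B cell markers was called. In bulk RNA, fewer cells of a type and less RNA per cell cannot be told apart, and the part of macrophage RNA in the rise of Msr1, Soat1, Pltp, Abcg1 and Abca1 was not tested.

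For the switch itself, SW against HFD, none of the 9 genes passed in edgeR, against 31.4% of all genes called in either direction. An unadjusted p under 0.05 was met by 3 of the 9 in edgeR, against 44.8% of all genes. DESeq2 called 3 of the 9 (Apoe, Nr1h3 and Pltp), against 35.8% of all genes, and limma-voom 2 (Msr1 and Nr1h3), against 32.6%. Those nearest the threshold in edgeR were Nr1h3 (log2 0.38 ± 0.14, adjusted p = 0.0567), Apoe (0.55 ± 0.21, 0.0681) and Msr1 (-0.62 ± 0.25, 0.0781). For the genes that had risen, the 95% intervals of this change were -1.17 to -0.07 for Msr1, -0.96 to 0.20 for Soat1, -0.75 to 0.00 for Pltp, -0.43 to 0.24 for Abcg1 and -0.58 to 0.10 for Abca1. The first 4 of these intervals do not reach a fall as large as the gene's rise from LFD to HFD, while that of Abca1 does. Among the macrophage markers 5 of 11 fell after the switch, Adgre1, Csf1r, Mrc1, Itgam and Mpeg1. Markers of other cells moved as well: 5 of 10 for adipocytes, 4 of 4 for red blood cells, 2 of 4 for B cells and 1 of 4 tested for T cells were higher, 2 of 6 for fibroblasts and progenitors were lower, and none of 5 endothelial or 5 mesothelial markers was called. The part of these in the values above was not tested.

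**Figure D3:**
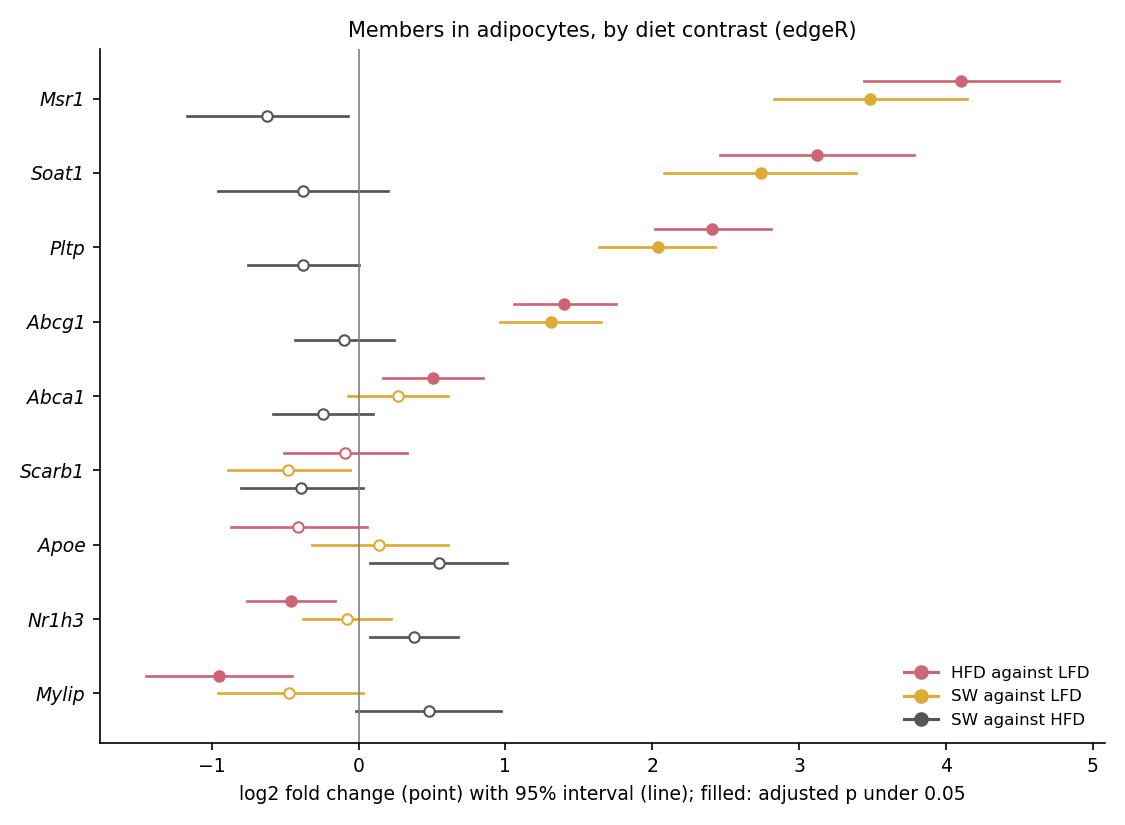
Log2 fold changes of the 9 genes in adipocytes (points) with 95% intervals (lines) for HFD against LFD, SW against LFD and SW against HFD; filled points have an adjusted p under 0.05. Msr1, Soat1, Pltp and Abcg1 are far above 0 against LFD in both diets, and the comparisons share libraries.

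When the mean of HFD and SW was set against LFD, 5 of the 9 genes were higher than in LFD and 1 lower, against 20.7% and 19.4% of all genes. The log2 differences were 3.79 for Msr1, 2.93 for Soat1, 2.23 for Pltp, 1.35 for Abcg1 and 0.39 for Abca1, and -0.71 for Mylip. Abca1 and Mylip were not called in SW against LFD alone. Abca1 was close to the threshold (edgeR adjusted p = 0.0409) and missed it with upper-quartile factors (0.0928). It also missed it without any 1 of 6 of the 9 libraries, with adjusted p from 0.0738 (without HFD library 401) to 0.149 (without LFD library 405). Mylip missed it without LFD library 405 (edgeR adjusted p = 0.0507).

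Levels of different genes were compared as CPM per kilobase of transcript. In LFD adipocytes Apoe led with a mean of 2357, then came Pltp at 85.9, Nr1h3 at 59.6 and Scarb1 at 55.9, the last pair overlapping. Mylip at 25.2, Abca1 at 12.1 and Abcg1 at 5.60 followed without overlap, and Msr1 at 1.37 and Soat1 at 1.33 closed the order. In HFD adipocytes Apoe (1795) and Pltp (464) stayed on top, and Msr1 (23.9) moved above Abca1 (17.4), Abcg1 (15.0), Mylip (13.2) and Soat1 (11.5), of which each overlapped with the next.

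The receptor's partners moved in both directions in HFD against LFD adipocytes. Of 8 partners and co-regulators 2 were higher, 2 lower and 4 not called, with a median log2 fold change of 0.13. These counts are near the shares of all genes, 26.5% higher and 25.0% lower. Rxrg fell by 0.99 ± 0.24 (edgeR adjusted p = 0.00655) and Rxra by 0.48 ± 0.12 (0.00659), both retinoid X receptors that pair with LXR. Nr1h2, which encodes LXRβ, had a log2 fold change of 0.01 ± 0.11.

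Other LXR targets split too. Of 12 listed, 10 could be tested (Abcg5 and Abcg8 could not), and 6 were higher and 2 lower in HFD, with a median of 0.40. Of all genes, 26.5% were called higher and 25.0% lower here. Cd5l, a secreted macrophage protein, rose from at most 2.21 CPM in LFD to 5.80 to 12.1 CPM in HFD (log2 2.91 ± 0.55, edgeR adjusted p = 0.00172), and Arl4c rose by 1.21 ± 0.24 (edgeR adjusted p = 0.00229). Apoc1, an apolipoprotein gene beside Apoe, went from 93.3 to 119 CPM in LFD to 13.8 to 29.8 CPM in HFD (log2 -2.50 ± 0.27, edgeR adjusted p = 6.47e-05). In SW it held 43.8 to 58.4 CPM, above HFD (edgeR adjusted p = 0.00764) and below LFD (edgeR adjusted p = 0.0132).

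Genes of lipoprotein uptake rose in HFD in 6 of 8 cases and fell in none, against 26.5% and 25.0% of all genes. Their median was 1.09. Lrp1, an uptake receptor for apolipoprotein E, rose from 199 to 248 CPM in LFD to 524 to 831 CPM in HFD (log2 1.67 ± 0.20, edgeR adjusted p = 0.000121). The scavenger receptor Stab1 rose by 1.54 ± 0.23 (edgeR adjusted p = 0.000427). Olr1, another scavenger receptor, rose by 2.87 ± 0.53 (edgeR adjusted p = 0.00162) at a low level, 1.81 to 4.02 CPM in HFD and under 1 CPM in every LFD library.

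Of 10 genes that free and carry cholesterol inside the cell, 5 rose and 1 fell, against 26.5% and 25.0% of all genes. Their median was 0.50. Lipa, the lysosomal acid lipase that splits cholesterol ester, rose from 38.1 to 73.8 CPM in LFD to 689 to 904 CPM in HFD (log2 3.96 ± 0.27, edgeR adjusted p = 7.37e-06), and held 334 to 405 CPM in SW. Npc1, which carries cholesterol out of the lysosome, rose by 2.01 ± 0.16 (edgeR adjusted p = 1.43e-05), and Stard3, a sterol carrier of late endosomes, by 1.46 ± 0.10 (edgeR adjusted p = 6.26e-06). Of 8 genes of cholesterol esterification, ester hydrolysis and oxysterols, 5 could be tested and 1 was called higher, against 26.5% of all genes. It was Nceh1, the neutral cholesterol ester hydrolase, with 7.84 to 19.1 CPM in LFD and 130 to 185 CPM in HFD (log2 3.68 ± 0.30, edgeR adjusted p = 1.51e-05).

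**Figure D4:**
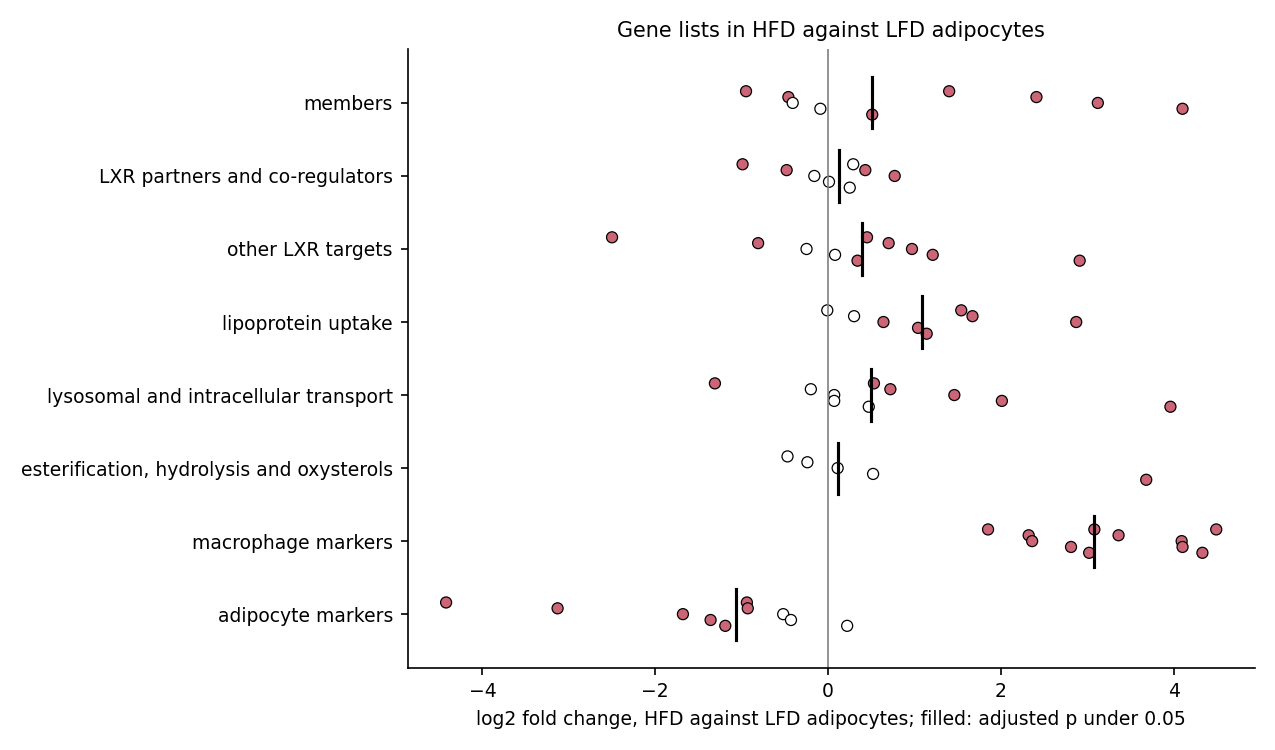
Log2 fold change in HFD against LFD adipocytes for each tested gene of the named lists, with a line at the list's median; filled points have an adjusted p under 0.05. Lipa (3.96), Nceh1 (3.68), Soat1 (3.12) and Msr1 (4.10) lie within the range of the macrophage markers (1.85 to 4.49), as do Pltp, Cd5l, Olr1 and Npc1. Mylip and Nr1h3 lie below 0.

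In the SVCs, Msr1 alone among the 9 genes passed between SW and HFD. It stood at 84.8 and 76.2 CPM in HFD, at 25.2, 24.7 and 31.9 CPM in SW and at 3.68 CPM in the LFD library. It fell by 1.66 ± 0.23 on the log2 scale from HFD to SW (edgeR adjusted p = 0.0362), where 11.7% of all 16319 genes were called lower. The fall was 1.62 without SW library 412 (edgeR adjusted p = 0.155) and 1.68 without SW library 413 (edgeR adjusted p = 0.0541). Without HFD library 411 the log2 change was -1.81, and without HFD library 212 -1.43. Each of these fits had 1 HFD library left, so only effect sizes are given.

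Other genes showed SVC groups without overlap that missed the threshold. Abca1 held 149 and 93.2 CPM in HFD and 27.4, 71.3 and 29.1 CPM in SW (log2 -1.63 ± 0.48, edgeR adjusted p = 0.0586), Soat1 112 and 90.8 CPM against 66.6, 76.6 and 62.6 CPM (-0.67 ± 0.22, 0.0742), and Mylip 40.4 and 24.3 CPM against 16.7, 19.6 and 16.6 CPM (-0.99 ± 0.31, 0.0679). Abcg1 held 118 and 93.9 CPM against 76.3, 81.4 and 76.6 CPM (-0.54, 95% interval -1.06 to -0.02, 0.108). Lack of overlap was common here: of all genes tested, 28.3% lay lower and 31.3% higher in every SW library than in both HFD libraries, 59.6% in all.

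Among the genes that lay higher in SVCs of SW mice, Nr1h3 held 61.6 and 123 CPM in HFD and 159, 143 and 169 CPM in SW (log2 0.70 ± 0.30, edgeR adjusted p = 0.122), and Scarb1 98.0 and 159 CPM against 215, 169 and 186 CPM (0.49 ± 0.26, 0.192). Apoe overlapped between the diets, with 4706 and 6207 CPM in HFD and 5673, 4828 and 4365 CPM in SW (-0.22 ± 0.32, 0.608). Pltp went from 1425 and 3871 CPM in HFD to 6450, 4804 and 5308 CPM in SW (1.00 ± 0.47, 0.151). The higher Pltp value in HFD was that of library 411, which lay nearer to the lowest SW library than to the other HFD library. Without library 411 there was 1 HFD library, assumed to vary like the other groups, and 8 of the 9 genes passed in edgeR, against 39.1% of all genes. Beside Msr1, those lower in SW were Abca1 (log2 -1.97 ± 0.52, edgeR adjusted p = 0.0362), Mylip (-1.36 ± 0.22, 0.0127), Soat1 (-0.88 ± 0.18, 0.0199) and Abcg1 (-0.76 ± 0.16, 0.0211). Those higher were Pltp (1.79 ± 0.36, edgeR adjusted p = 0.0180), Nr1h3 (1.19 ± 0.21, 0.0142) and Scarb1 (0.79 ± 0.23, 0.0462), while Apoe was not called (-0.09 ± 0.30, 0.824). Without library 212 in place of 411, Msr1 alone passed, against 3.21% of all genes, and the log2 changes were -1.08 for Abca1, -0.41 for Mylip, -0.35 for Soat1, -0.21 for Abcg1, 0.57 for Pltp, 0.42 for Nr1h3, 0.31 for Scarb1 and -0.27 for Apoe (edgeR adjusted p from 0.230 to 0.573). The macrophage sum was 10985 CPM in HFD library 212 and 21957 CPM in HFD library 411, against 15691 CPM or more in SW. With all SVC libraries, none of the 11 macrophage markers was called higher in SW than in HFD, 2 were lower and 9 were not called. Their median log2 change was -0.05, where 11.7% of all genes were called lower. The part of cell content in the differences of the 9 genes was not tested.

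The single LFD library of SVCs held 3.68 CPM of Msr1, 22.3 CPM of Soat1 and 14.3 CPM of Abcg1, below every SVC library of HFD and SW mice. Its macrophage markers summed to 9475 CPM, above every adipocyte library, but they were split. Csf1r (3005 against 484 CPM), C1qa, C1qb and Cd14 lay above their mean in HFD adipocytes. Lyz2 (775 against 4032 CPM), Adgre1, Cd68, Mpeg1, Itgam, Fcgr1 and Mrc1 lay below it. The other genes in this library stood at 3441 CPM for Apoe, 4426 CPM for Pltp, 178 CPM for Scarb1, 115 CPM for Nr1h3, 72.6 CPM for Abca1 and 17.6 CPM for Mylip. With 1 library these values have no replicate check.

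Between the fractions, Apoe and Pltp were higher in SVCs than in adipocytes of HFD mice. The log2 difference was 1.11 ± 0.25 for Apoe (edgeR adjusted p = 0.00638) and 1.36 ± 0.33 for Pltp (edgeR adjusted p = 0.00860), where 16.2% of all 17441 genes were called higher in SVCs. Ctsa, which shares exon bases with Pltp, was higher in SVCs by 0.91 ± 0.21 (edgeR adjusted p = 0.00751). Without library 411, Apoe was still called (log2 0.89 ± 0.27, edgeR adjusted p = 0.0430) and Pltp was not (0.46 ± 0.24, edgeR adjusted p = 0.235). Abcg1, Msr1 and Soat1 did not pass between the fractions in HFD, with 95% intervals of the log2 difference of -0.11 to 0.66 for Abcg1, -0.71 to 0.49 for Msr1 and -0.54 to 0.69 for Soat1. Without library 411 these differences were 0.42 ± 0.20, -0.04 ± 0.33 and 0.21 ± 0.34, and none passed, where 14.7% of all genes were called in either direction. Without library 212, Apoe (edgeR adjusted p = 0.00232) and Pltp (log2 1.91, 0.000102) were both called, as were 40.7% of all genes.

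In SW mice, Pltp and Scarb1 were higher in SVCs and Abca1, Msr1 and Mylip higher in adipocytes, where 35.6% of all genes were called higher and 32.8% lower in SVCs. Pltp was higher in SVCs by 2.81 ± 0.32 on the log2 scale (edgeR adjusted p = 5.55e-06), and Ctsa, which shares exon bases with it, by 1.80 ± 0.20. Abca1 was 3.50-fold lower (log2 -1.81 ± 0.32, edgeR adjusted p = 0.000231), Mylip 3.16-fold lower (-1.66 ± 0.25, edgeR adjusted p = 6.00e-05) and Msr1 2.06-fold lower (-1.04 ± 0.26, edgeR adjusted p = 0.00265). Of the 11 macrophage markers, 9 were called higher in SW SVCs than in SW adipocytes and 2 were not called. The 11 summed to 5534 to 8076 CPM in SW adipocytes and 15691 to 22732 CPM in SW SVCs. Mpeg1 went the way of Msr1, with 314 to 401 CPM in SW adipocytes and 213 to 295 CPM in SW SVCs. Mrc1 overlapped between the fractions. Scarb1 was 1.52-fold higher in SVCs (log2 0.60 ± 0.22, edgeR adjusted p = 0.0248), a call lost without adipocyte SW library 407 (0.163), SVC SW library 412 (0.157) or SVC SW library 414 (0.0778). Abcg1 and Soat1 did not pass, with 95% intervals of -0.40 to 0.29 and -0.65 to 0.46. Nr1h3 (log2 0.49, 95% interval 0.02 to 0.95, edgeR adjusted p = 0.0606) and Apoe (0.43, -0.06 to 0.93, 0.106) did not pass either. Nr1h3 was called higher in SVCs with RLE factors, upper-quartile factors and DESeq2, and Apoe with DESeq2. The change from HFD to SW was itself set against the same change in the other fraction, and 3 of the 9 genes, Mylip, Pltp and Scarb1, passed this test, where 27.1% of all genes did. The log2 change in adipocytes minus that in SVCs was 1.34 for Mylip, -1.45 for Pltp (-0.89 for Ctsa) and -0.96 for Scarb1. The share is near that of all genes, and without SVC HFD library 212 none of the 3 passed (edgeR adjusted p = 0.102, 0.0703 and 0.177), where 17.0% of all genes did. Scarb1 was lost on leaving out any of 10 of the 15 libraries, and without library 411 all 3 passed, as did 38.5% of all genes.

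**Figure D5:**
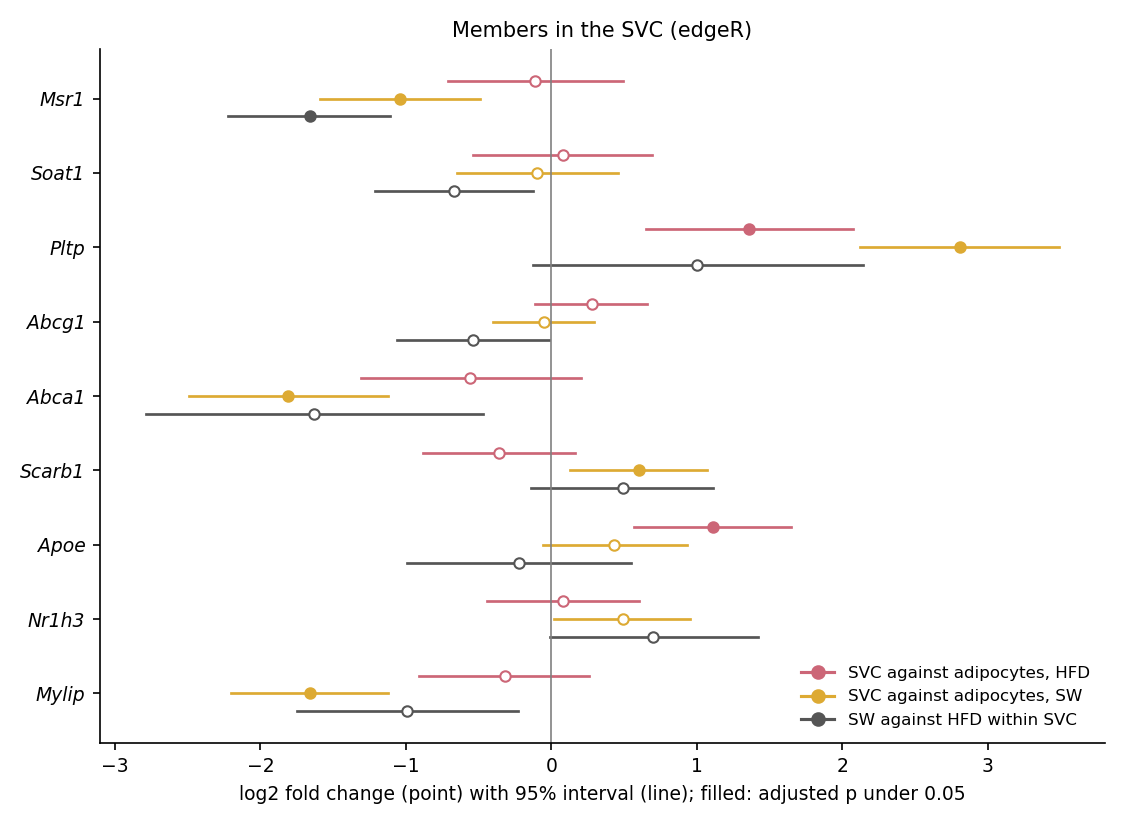
Log2 fold changes of the 9 genes (points) with 95% intervals (lines) for SVCs against adipocytes in HFD and SW mice and for SW against HFD within SVCs; filled points have an adjusted p under 0.05. Pltp is higher in SVCs under both diets, and Abca1, Mylip and Msr1 are lower in SVCs of SW mice.

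Over all 15 libraries, the genes whose log2 CPM ran most like that of Msr1 were Nceh1 (Pearson r = 0.994), Atp6v0d2 (0.993) and Clec7a (0.991), among 9402 genes. For Abca1 they were Dpy19l1 (0.988), Atxn3 (0.986) and Ddx46 (0.985), for Nr1h3 Mrpl37 (0.952), Tusc2 and Sumf2 (both 0.943), and for Scarb1 Ppm1f (0.880), Notch1 (0.808) and Pcdh1 (0.781). These values describe libraries that share their fraction, diet and preparation.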

How the data were processed

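Adipocyte and stromal vascular cell (SVC) RNA was sequenced after TruSeq preparation; whether strand was kept is not given in the sources used here. The authors used Bowtie2 for mapping and RSEM for counting, and deposited the expected counts as whole numbers without normalization; the submitters' processing notes name the build mm9. The labels list 18 libraries in 26 records, as 8 libraries have 2 runs. Paired-end and single runs are mixed. All adipocyte SW libraries have paired-end runs alone, and all SVC SW libraries have both kinds. Run type and fraction therefore cannot be told apart in SW mice. Run type is partly tied to diet as well. In adipocytes some LFD and HFD libraries have single runs too, and in SVCs some HFD libraries have single runs alone. The part of run type in the diet comparisons was not tested. Column numbers are in no label, so 15 columns were used as replicates of their group, and 3 columns whose names match no single group were not used. Nothing ties columns to mice, so p-values measure the spread between these libraries.

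Counts were fitted with edgeR 4.0.16 (filterByExpr, minimum count 10, TMM factors, robust quasi-likelihood test, Benjamini-Hochberg adjusted p under 0.05 over all genes) per fraction and over both fractions. Alternatives were other scaling factors, filters, DESeq2 1.42.0, limma-voom (limma 3.58.1), fits of fewer groups and leaving out each library. The tests were checked on simulated data that had the same spread in every gene and group, unlike the SVC libraries. Levels are counts per 1000000 (CPM) scaled with the factors of the fit of both fractions. Totals of 5781902 to 23725647 counts per library set the precision. All 9 members are named, and at most the 3 genes of each wider list with the largest change past the threshold in HFD against LFD adipocytes, of which 1 is not reported here. 1 listed gene, Adgre1, is held under an older symbol and was matched by its gene ID. The members and lists were chosen with earlier results of these data known. Promoter sequence was taken from RefSeq (GRCm38.p6), and gene positions from GENCODE M21 (GRCm38); neither is the build the counts were made on.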

Additional observations from a re-analysis of the deposited data

Results flagged for a closer look

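By edgeR's test of the difference itself, 3 of the 9 genes were called as changing differently from HFD to SW in adipocytes and SVCs. That share is near the 27.1% of all genes called by this test. For Mylip the change was 1.34 ± 0.36 higher on the log2 scale in adipocytes than in SVCs (edgeR adjusted p = 0.0161), where neither change passed by itself (0.48 in adipocytes, -0.99 in SVCs). For Pltp the difference was -1.45 ± 0.45 (edgeR adjusted p = 0.0308), and for Scarb1 -0.96 ± 0.33 (edgeR adjusted p = 0.0435). The changes behind these did not pass either, with -0.38 for Pltp and -0.39 for Scarb1 in adipocytes and 1.00 and 0.49 in SVCs. Ctsa, which shares exon bases with Pltp on the opposite strand, differed the same way as Pltp (-0.89 ± 0.29, edgeR adjusted p = 0.0380). Without SVC HFD library 212 none of the 3 was called, with differences of 0.93 for Mylip (edgeR adjusted p = 0.102), -0.90 for Pltp (0.0703) and -0.65 for Scarb1 (0.177). Pltp was also not called without adipocyte HFD library 402 or 403, adipocyte SW library 408 or 409, or SVC SW library 412, with adjusted p up to 0.0741. Scarb1 missed the threshold on leaving out any of 10 of the 15 libraries: adipocyte LFD 404 and 405, HFD 401 and 402 and SW 407, 408 and 409, and SVC HFD 212 and SW 412 and 414, and also with upper-quartile factors (0.0573) and with no filter on low counts (0.0532). Without library 411 all 3 were called, with 1.75 ± 0.36 for Mylip (edgeR adjusted p = 0.00212), -2.25 ± 0.33 for Pltp (0.000243) and -1.26 ± 0.32 for Scarb1 (0.00802), and so were Nr1h3 (-0.89 ± 0.24, 0.0113), Abca1 (1.63 ± 0.50, 0.0208) and Msr1 (edgeR adjusted p = 0.0466), in a fit that called 38.5% of all genes. The SVC HFD group has 2 libraries, of which 411 has 33.5% mitochondrial counts and 212 has 0.287% hemoglobin counts. Between these 2 libraries the chi-square per degree of freedom of the counts was 408, against 13.7 to 96.8 for pairs within the other groups. The part of these traits in the differences was not tested.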

How the results depend on the processing

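No paired analysis was possible because the columns carry no replicate number of the labels. Of 1323 values of the 9 genes under alternatives, 1227 kept direction and side of the threshold, 40 lost the call, 45 gained it and 11 changed direction. The count of the 9 genes called in adipocytes for SW against HFD, 0, was 2 with upper-quartile factors, 1 with at least 10 counts in every library, 3 with DESeq2, 2 with limma-voom, 1 with only the groups compared and 0 to 2 when each library was left out; all genes called ran from 1522 to 4554. In SVCs the count for SW against HFD, 1, was 4 with at least 10 counts in every library, 4 with DESeq2 and 0 to 8 when each library was left out; all genes called, 2849, were 5222 with DESeq2, 1719 with limma-voom and 0 to 6213 when each was left out. For SVCs against adipocytes in HFD the count was 1 to 2 and all genes called 2528 to 7044 when each library was left out. For the difference between fractions the count, 3, was 5 with at least 10 counts in every library and 0 to 6 when each was left out, and all genes called ran from 2936 to 6622. Directions changed only for values that were not called: leaving out each library, Scarb1 in HFD against LFD ran from -0.24 to 0.04, Abcg1 in SW against HFD from -0.24 to 0.04, Apoe in SW against LFD from -0.03 to 0.24, in SVCs against adipocytes in HFD Msr1 from -0.23 to 0.00, Nr1h3 from -0.50 to 0.49 and Soat1 from -0.09 to 0.21, and Nr1h3 in the difference between fractions from -0.89 to 0.01. Abcg1 in SVCs against adipocytes in SW was 0.01 with RLE factors and with DESeq2. The cause was not tested. SVC HFD, with 2 libraries, limits every comparison that uses it, and leaving out either of them left that group without a replicate.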
